A study of Mus musculus with 4 samples.

Results

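The let-7 family was described in MEFs, the fibroblasts that grow out of a dissociated mouse embryo, with and without the gene Junb. Its members were taken by name: mmu-let-7a, mmu-let-7b, mmu-let-7c, mmu-let-7d, mmu-let-7e, mmu-let-7f, mmu-let-7g, mmu-let-7i and mmu-miR-98 (mmu for mouse, left off below), with passenger strands left out. All 9 names were on the array, among 710 mouse miRNA names in all. The cells came from wild type and Junb-deficient embryos at embryonic day 9.5 on a C57BL/6 × 129/Sv background, and every line had been immortalized by the 3T3 protocol. RNA of 2 wild type clones and 2 Junb-/- clones was measured on 1 single-colour Febit array each, on which bound miRNAs are extended by a polymerase that builds in biotin for detection. JUNB belongs to the AP-1 family of transcription factors, and the array screened for miRNAs whose level differs with its loss. Junb mRNA is not measured on a miRNA array, so the genotype rests on the labels.

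let-7 was one of the first miRNAs to be found, in the worm Caenorhabditis elegans, where it times the passage from larval to adult cells. In mammals let-7 levels are low in early embryos and rise as cells differentiate. LIN28 proteins hold them down by binding let-7 precursors and blocking their maturation, and let-7 in turn represses Lin28 mRNA. Other well-known let-7 targets are the growth regulators Hmga2, Ras genes and Myc, so that the family is best known for restraining growth. Each member is cut from its own hairpin precursor and pairs with target mRNAs mainly through its seed, bases 2 to 8 from the 5′ end.

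The mature sequences are shown because the members share a seed and otherwise differ by few bases, which bears on how an array can tell them apart. All 9 were found in the RefSeq table of GRCm38.p6 under their names with the suffix of the 5′ arm. They are written 5′ to 3′ with the seed in capitals.
let-7a: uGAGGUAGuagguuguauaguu
let-7b: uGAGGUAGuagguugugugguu
let-7c: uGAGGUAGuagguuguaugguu
let-7d: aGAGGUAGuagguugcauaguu
let-7e: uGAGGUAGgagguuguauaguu
let-7f: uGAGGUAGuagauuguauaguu
let-7g: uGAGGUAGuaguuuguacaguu
let-7i: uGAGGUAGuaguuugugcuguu
miR-98: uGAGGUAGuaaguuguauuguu
Each is 22 bases long, and 14 of the 22 positions hold the same base in all 9. The seed was shared by every member, and by 11 of the 1679 mature miRNA names in the RefSeq table (0.655%). The other two holders of the seed are let-7k, which was not among the 710 names, and miR-1961, which was. Between any pair of members 1 to 6 bases differed. Counted from the 5′ end, let-7c differs from let-7a by A19G, let-7e by U9G and let-7f by G12A, and let-7b differs from let-7c by G17A. The widest gap lay between let-7d and let-7i with 6 differences. let-7d is the only member with another first base (U1A against let-7a), and miR-98 differs from let-7a by G11A and A19U. The sources used here do not say how far the array's probes separate such sequences, and a spot may hold signal from a close relative of the miRNA it is named for. Every level below is therefore the signal of the spots that carry a member's name.

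**Figure D1:**
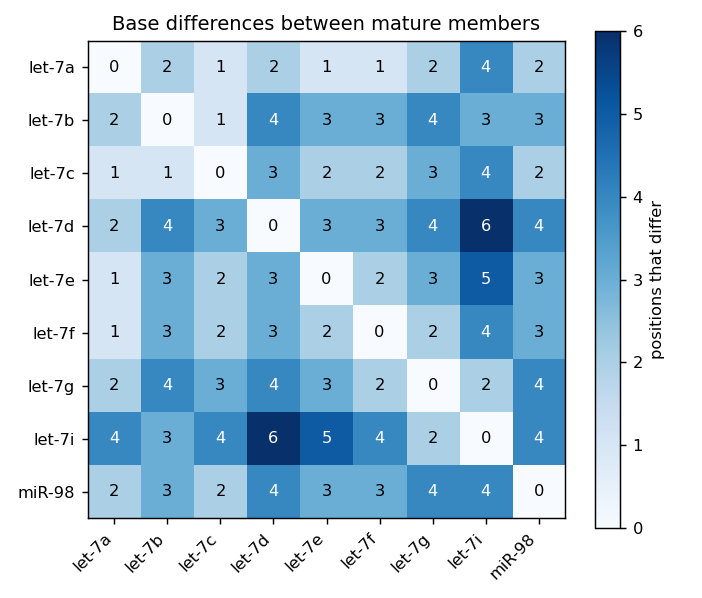
Number of positions at which the mature sequences of a pair of members differ, over 22 positions. Off the diagonal the counts run from 1 (let-7a with let-7c, let-7e and let-7f, and let-7b with let-7c) to 6 (let-7d with let-7i).

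The members come from 12 genes in the RefSeq table, most of them in small clusters that can be transcribed together. Positions below are those of the mature sequences, whereas distances are counted between the starts of the hairpin genes. On chromosome 13, let-7a (Mirlet7a-1, mature sequence at chr13:48538239-48538260, minus strand), let-7f (Mirlet7f-1, chr13:48537889-48537910, minus strand) and let-7d (Mirlet7d, chr13:48536078-48536099, minus strand) lie in a row, with starts 350 and 1817 bases apart. On chromosome 15, let-7c (Mirlet7c-2, chr15:85706616-85706637, plus strand) and let-7b (Mirlet7b, chr15:85707325-85707346, plus strand) start 716 bases apart within the long non-coding gene Lncppara. On the X chromosome, let-7f (Mirlet7f-2, chrX:151912353-151912374, plus strand) and miR-98 (chrX:151913229-151913250, plus strand) start 868 bases apart within the protein-coding gene Huwe1. A further let-7c gene (Mirlet7c-1, chr16:77599672-77599693, plus strand) starts 721 bases from Mir99a, let-7e (chr17:17830366-17830387, plus strand, within Spaca6) lies 164 bases from Mir99b and 460 from Mir125a, and Mirlet7a-2 on chromosome 9 lies 5291 bases from Mir100. let-7g (chr9:106178846-106178867, plus strand) lies within Wdr82, 24716 bases from Mir135a-1, and let-7i (chr10:122985698-122985719, minus strand) has no other miRNA gene within 60000 bases. A member with more than 1 gene gives a single mature sequence, so its signal cannot be split between its genes.

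The array holds 8 spots for each miRNA name and the deposited files give 1 intensity per spot. Over all spots the median intensity was 33.6 (clone 1) and 105.6 (clone 2) for the wild type and 84.0 (clone 1) and 110.1 (clone 2) for Junb-/-, so wild type clone 1 had the dimmest array. Levels are given as log2(intensity + 50) after quantile normalization over the 4 arrays and averaging over spots, on which scale the median of all 710 miRNAs was 6.96. The offset of 50 compresses differences of dim miRNAs. With respect to cell type, 8 of 8 miRNAs of mesenchymal cells had mean levels from 10.31 to 11.99, whereas 5 miRNAs of blood cells lay between 6.07 and 6.88, 7 of epithelium between 6.42 and 6.91 and 2 of endothelium at 6.66 and 6.99, below or close to the median of the array. Markers of neurons (6.63 to 8.51), muscle (6.78 to 7.52) and pluripotent cells (6.20 to 6.71) were also well below the mesenchymal ones, and 0 markers of these lists passed limma's adjusted p of 0.05 between the genotypes, with 4 of 8 mesenchymal miRNAs and none of the others under an unadjusted p of 0.05, beside 10.4% of all miRNAs. These 4 went both ways, with log2 differences of 1.13 (miR-199a-3p), 0.84 (miR-214), -1.02 (miR-145) and -1.36 (miR-143), and their part in the values of the let-7 family was not tested. Differences were tested with limma over all 710 miRNAs, with Benjamini-Hochberg adjusted p-values. The study describes independent pairs of a wild type and a Junb-deficient clone. The sources used here do not say whether the clone number marks a pair or whether separate embryos gave rise to the clones. The tests were unpaired, and p-values rest on the spread between these clones. For each miRNA limma draws that spread toward a value common to all 710 miRNAs. The common value weighs more here, with 11.8 prior against 2 residual degrees of freedom. With only 2 clones per genotype the precision is low. In what follows the value of clone 1 comes first in each genotype.

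All let-7 members gave a clear signal in MEFs and miR-98 gave a faint one. The mean level over the 4 clones was highest for let-7d (10.84), followed by let-7f (10.62), let-7i (10.40), let-7e (10.31), let-7a (10.22), let-7c (9.95), let-7b (9.11), let-7g (8.85) and miR-98 (6.88). Spots of different sequence capture and extend their miRNA with different yield, so this is an order of signals and not of amounts. let-7d ranked between 25 and 35 among the 710 miRNAs on the 4 arrays and let-7g between 92 and 161, whereas miR-98 ranked between 317 and 470, close to the middle of the array.
Neighbours in this order mostly could not be separated. The clone values of each member overlapped with those of the next one down the order from let-7d to let-7g. let-7d lay above let-7f in 3 of 4 clones, let-7e lay above let-7a in 2 of 4, and let-7b lay above let-7g in 2 of 4. let-7a was above let-7c in all 4 clones, and let-7c was above let-7b in all 4, with a gap of 0.84 between their means. miR-98 stood apart, as its highest clone (7.14) was below the lowest clone of let-7g (8.56).

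**Figure D2:**
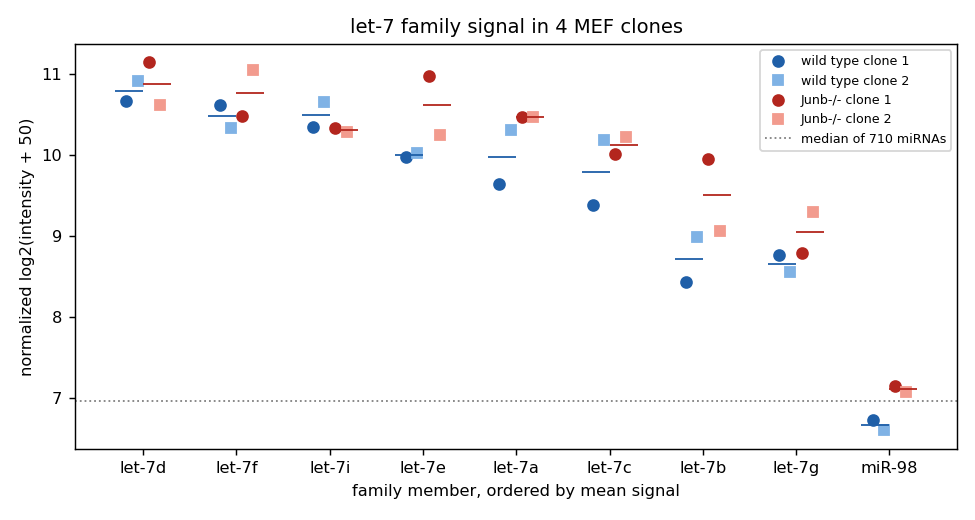
Normalized log2(intensity + 50) of the 9 members, ordered by mean signal. Circles and squares are clones 1 and 2, blue is wild type and red is Junb-/-, short bars are genotype means (n = 2 clones), and the dotted line is the median of all 710 miRNAs (6.96). Only miR-98 lies at that line.

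The spots of some members were even and those of others were not. let-7d had 8 spots between 1101 and 1561 in wild type clone 1, between 1293 and 2712 in wild type clone 2, between 1437 and 2560 in Junb-/- clone 1 and between 1424 and 2731 in Junb-/- clone 2. let-7i was nearly as even on 3 arrays, with its highest spot 1.63 to 1.99 times its lowest, but 3.19 times in Junb-/- clone 2, where its spots ran from 907 to 2889. These sets contrast with let-7b, of which 7 spots had a value on each array. Its lowest and highest spot were 1.00 and 797.6 in wild type clone 1, 134.0 and 1005 in wild type clone 2, 117.6 and 14234 in Junb-/- clone 1 and 138.4 and 1276 in Junb-/- clone 2.
Part of this spread recurred at the same position on each array. In let-7b the spots in positions 6 and 7 were the dimmest pair on the arrays of both wild type clones and of both Junb-/- clones. The dim end was lowest in wild type clone 1. Of 59 let-7 spots with a value on that array, miR-98 left out, 6 were under an intensity of 100, beside 1 of 60 in wild type clone 2 and none of 60 on either Junb-/- array. An example is the last spot of let-7a, which read 12.8 in wild type clone 1, 548.8 in wild type clone 2, 672.0 in Junb-/- clone 1 and 760.0 in Junb-/- clone 2.
Single spots stood out at the other end in Junb-/- clone 1. Spot 4 of let-7b read 14234 there, against 797.6 (wild type clone 1), 977.3 (wild type clone 2) and 943.2 in Junb-/- clone 2. Spot 3 of let-7e read 17352 there, against 1251 (wild type clone 1), 1817 (wild type clone 2) and 2732 in Junb-/- clone 2. These readings raise the means of both members in that clone, as the files hold no flag by which a spot could be left out. For miR-98, 1 spot read exactly 0 (Junb-/- clone 1). Its wild type clones had spot medians of 21.6 and 42.4 and its Junb-/- clones of 122.0 and 98.2, values near the offset.

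**Figure D3:**
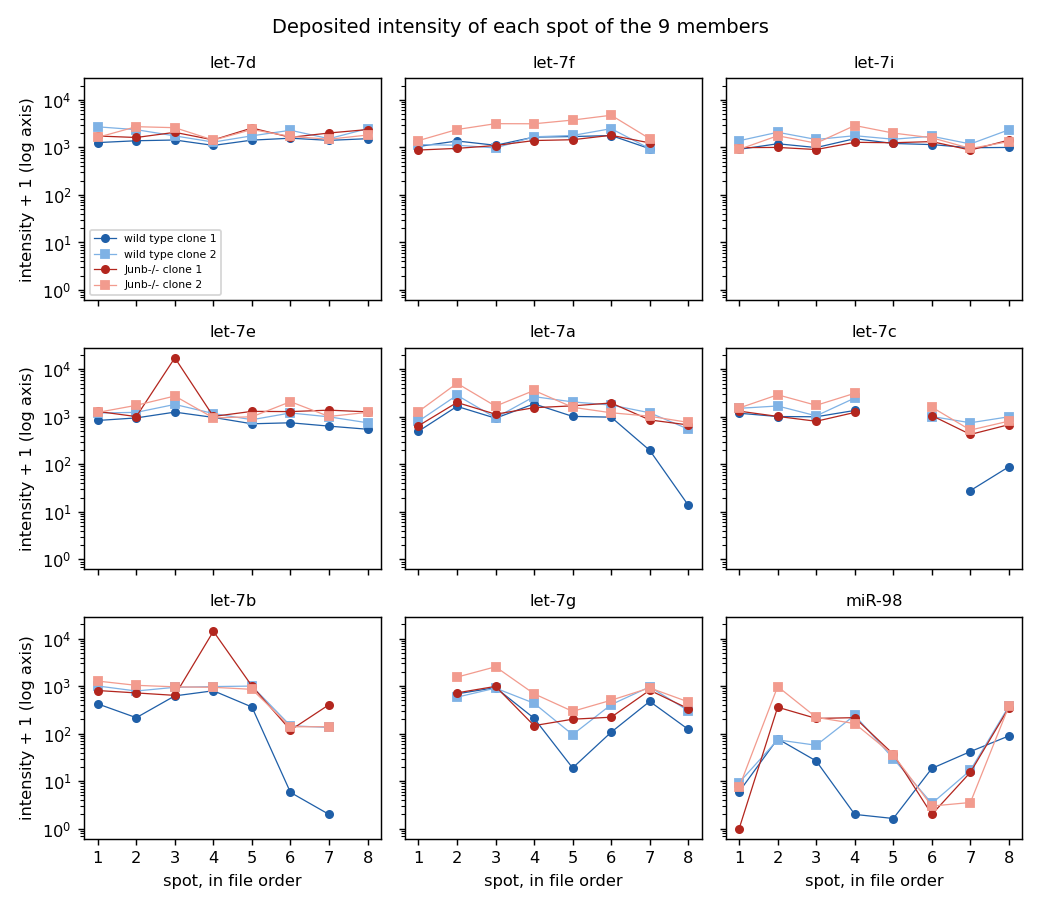
Deposited intensity (plus 1, log axis) of the 8 spots of each member in file order, with 1 line per array and a gap where no value was given. let-7d and, except in Junb-/- clone 2, let-7i are level across spots. let-7a, let-7b, let-7c and let-7g drop at some spots, with their lowest values in wild type clone 1. let-7b is dimmest at positions 6 and 7 on every array. In Junb-/- clone 1, 1 spot each of let-7b (14234) and let-7e (17352) rises.

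No member differed between Junb-/- and wild type MEFs by limma. Of the 9, 0 had an adjusted p under 0.05 and 0 had an unadjusted p under 0.05, beside 1.41% and 10.4% of all 710 miRNAs. The adjusted p ran from 0.510 (let-7b) to 0.960 (let-7d). The log2 fold change of Junb-/- over wild type was above 0 for 8 members and below 0 for let-7i, with a median of 0.39 over the 9, beside 386 of 710 above 0 and a median of 0.04 over all miRNAs. Both Junb-/- clones lay above both wild type clones for 5 members, let-7a, let-7b, let-7e, let-7g and miR-98, an order that held for 21.3% of all miRNAs. They lay below for 1 member, let-7i, as for 17.3% of all miRNAs. The genotypes were thus apart for 6 of 9 members, beside 38.6% of all miRNAs, and overlapped for let-7c, let-7d and let-7f. The 9 are related sequences read on the same arrays, so these counts are not 9 separate observations, and they moved with the scaling as given further on.

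let-7b had the largest difference of the family. The wild type clones read 8.44 and 8.99, the Junb-/- clones 9.95 and 9.06. The Junb-/- clones were higher, but clone 2 by only a small step over wild type clone 2. The log2 fold change was 0.79 (standard error 0.40, 95% interval from -0.07 to 1.65, adjusted p = 0.510), or 1.73-fold. With the highest and lowest spot of each array left out wild type clones read 8.67 and 9.17, Junb-/- clones read 9.65 and 9.20, and the log2 fold change was 0.50. With the median over spots it was 0.21. Without Junb-/- clone 1, which holds the spot at 14234, it was 0.34, and without Junb-/- clone 2 it was 1.24. Dropping wild type clone 1 gave 0.51.
let-7e followed. Its wild type levels were 9.98 and 10.03 and its Junb-/- levels 10.98 and 10.25. The wild type clones were close together, and the higher Junb-/- clone was again clone 1. The log2 fold change was 0.61 (standard error 0.37, 95% interval from -0.19 to 1.41, adjusted p = 0.650). It was 0.39 with the extreme spots left out and 0.25 without Junb-/- clone 1, but 0.98 without Junb-/- clone 2.
let-7a read 9.65 and 10.31 in the wild type and 10.47 in both Junb-/- clones. Wild type clone 1 alone was low, and the rest were close. The log2 fold change was 0.49 (standard error 0.37, 95% interval from -0.30 to 1.28, adjusted p = 0.738) but 0.16 with wild type clone 1 dropped and 0.83 with wild type clone 2 dropped. It was 0.28 with the extreme spots left out and 0.15 with the median over spots. By that median the genotypes overlapped, with wild type clones at 10.09 and 10.50 and Junb-/- clones at 10.63 and 10.27.

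miR-98, the dim member, had wild type levels of 6.72 and 6.60 and Junb-/- levels of 7.14 and 7.07. Both clones of each genotype were close together, and the genotypes did not overlap. Its spots did not all go the same way. Of 8 spots, 5 were higher and 3 lower in Junb-/-, with log2 differences from -0.67 to 1.96. The log2 fold change was 0.45 (standard error 0.35, 95% interval from -0.30 to 1.19, adjusted p = 0.738), and it stayed between 0.39 and 0.51 whichever clone was left out. Its neighbour on the X chromosome, let-7f, had wild type levels of 10.62 and 10.33 and Junb-/- levels of 10.48 and 11.05. Here the genotypes overlapped and only Junb-/- clone 2 was high, with a spot median of 3143 against 1365 and 1146 (wild type) and 1243 (Junb-/- clone 1). Its log2 fold change was 0.29 (95% interval from -0.50 to 1.07). It was 0.0041 when that clone was dropped, 0.14 without wild type clone 2 and 0.57 if Junb-/- clone 1 was dropped.
let-7g, with wild type levels of 8.76 and 8.56 and Junb-/- levels of 8.79 and 9.30, also was highest in Junb-/- clone 2. Its lower Junb-/- clone was barely above the wild type clones, and the log2 fold change was 0.39 (95% interval from -0.39 to 1.16). This became 0.64 when Junb-/- clone 1 was dropped and 0.13 when clone 2 was. With the extreme spots left out it was 0.20 and the genotypes overlapped, with wild type clones at 8.97 and 8.66 and Junb-/- clones at 8.79 and 9.23. let-7c, a base away from let-7a, had wild type levels of 9.38 and 10.19 and Junb-/- levels of 10.02 and 10.23. It was low in wild type clone 1 alone, as let-7a was, and its log2 fold change of 0.33 (95% interval from -0.48 to 1.15) was -0.07 without that clone and 0.74 without wild type clone 2.
let-7d, the brightest member, had wild type levels of 10.67 and 10.91 and Junb-/- levels of 11.15 and 10.61. The Junb-/- clones lay on either side of the wild type clones, and the log2 fold change was 0.09 (95% interval from -0.69 to 0.87), or between -0.18 and 0.35 when 1 clone was dropped. let-7i was the member with a negative value, with wild type levels of 10.34 and 10.66 and Junb-/- levels of 10.33 and 10.28. Both Junb-/- clones lay just under wild type clone 1, and the log2 fold change was -0.19 (95% interval from -0.95 to 0.56). It was -0.35 without wild type clone 1 and -0.035 if clone 2 was dropped instead. For 2 of the 9 members, let-7d and let-7i, the interval stayed within a log2 change of 1 in either direction. For the other members the data do not exclude such a difference.

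**Figure D4:**
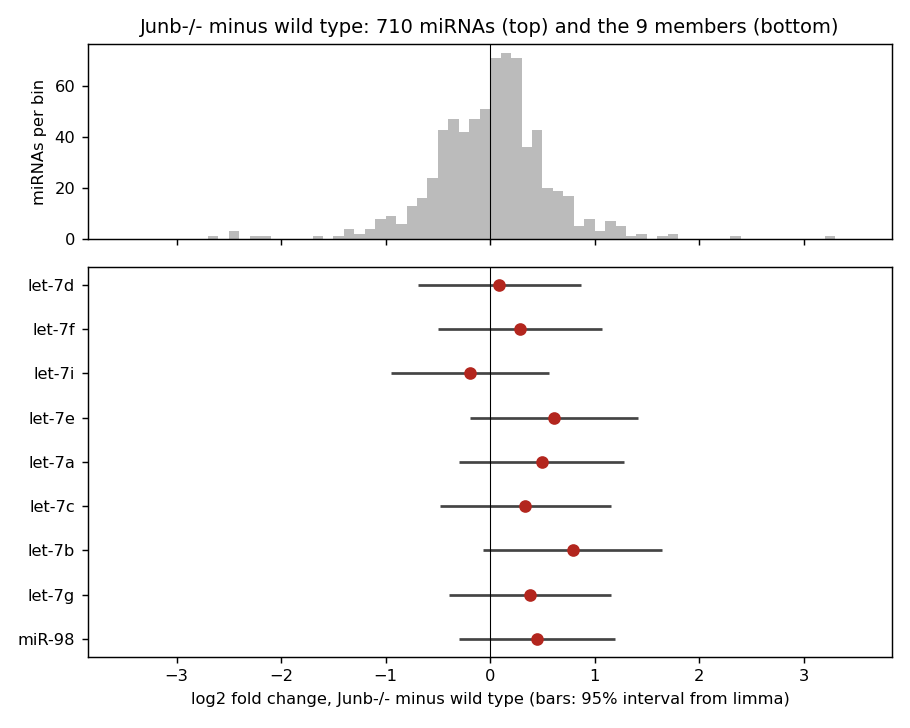
Log2 fold change of Junb-/- over wild type for all 710 miRNAs (top, histogram in bins of 0.1) and for the 9 members (bottom, points with 95% intervals from limma, n = 2 clones per genotype). Every interval of the family includes 0, and the members lie between -0.19 (let-7i) and 0.79 (let-7b).

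The small positive shift of the family depended on how the arrays were brought to a common scale. Scaling to the 75th percentile of each array gave a median of 0.15 over the 9 members, with 6 above 0. Both Junb-/- clones then lay above both wild type clones for 2 members (18.7% of all miRNAs) and below for 0 (17.6%). Scaling to the median of each array gave a median of -0.0031, with 4 members above 0, 2 wholly above (16.2% of all) and 1 wholly below (21.8%). Cyclic loess gave 0.42 with 8 members above 0, 5 wholly above (21.7%) and 1 wholly below (23.2%). The family median thus lay above or at 0 depending on the scaling. The deposited normalized log2 values gave a median of 0.013, with 5 members above 0, 2 wholly above (18.2%) and 1 wholly below (17.5%). In these 4 settings the median over all miRNAs was -0.0068, -0.085, 0.0082 and -0.027. Taking the median over spots gave 0.18 with 7 above 0, 2 wholly above (19.2%) and 0 wholly below (17.9%), and leaving out the extreme spots gave 0.28 with 8 above 0, 4 wholly above (21%) and 0 wholly below (17.9%). No member passed an adjusted p of 0.05 in limma under any setting tried. Without wild type clone 1, whose array was the dimmest, the median was 0.43 with 6 members above 0. let-7b, let-7e, let-7g and miR-98 kept a positive value and let-7i a negative one under every setting that gave them a value, with let-7b between 0.12 and 1.36 and let-7i between -0.73 and -0.035.
In the deposited normalized values miR-98 read 6.48 and 6.16 in the wild type and 7.78 and 7.10 in the mutant clones, a log2 difference of 1.12 (standard error 0.62, adjusted p = 0.641). let-7f in the same values read 11.88 and 10.46 in the wild type and 10.97 and 11.94 in the mutant clones, so that the clones of each genotype differed more than the genotypes.

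**Figure D5:**
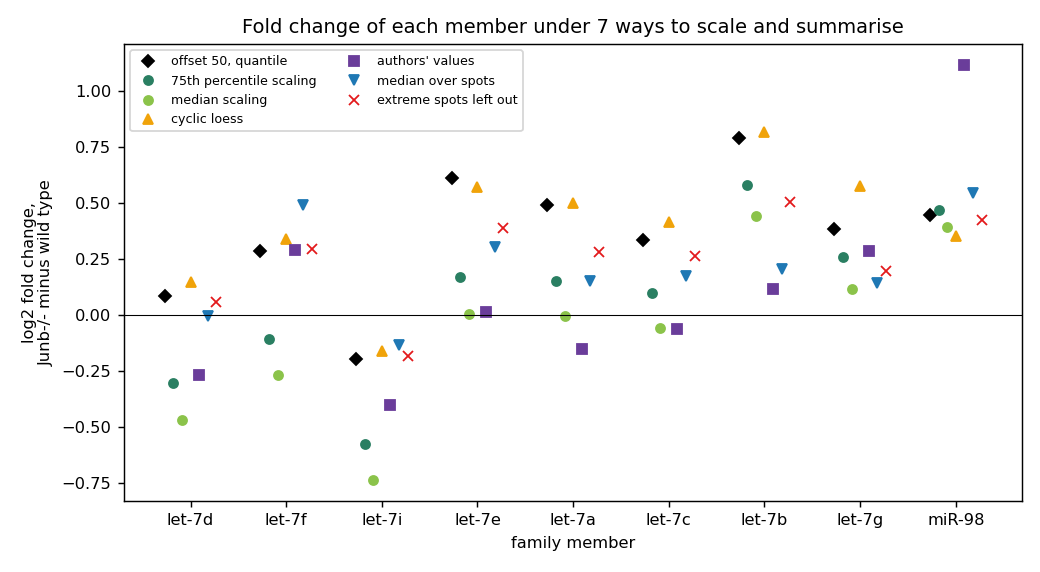
Log2 fold change of each member under 7 ways to scale the arrays and to summarise the spots, black diamonds being the values in the text. let-7i stays below 0, let-7b, let-7e, let-7g and miR-98 stay above it, and let-7a, let-7c, let-7d and let-7f cross it.

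Single clones of the same genotype differed from each other by amounts of similar size to those between the genotype means. These are unlike measures, as a mean over clones varies less than a single clone. The median size of the difference over the 9 members was 0.29 between the wild type clones and 0.51 between the Junb-/- clones, beside 0.39 between the genotypes. Over all 710 miRNAs these medians were 0.43, 0.34 and 0.30. Between the wild type clones let-7c differed most, by 0.81 with clone 2 higher, and let-7e least, by 0.05. Between the Junb-/- clones let-7b differed most, as it fell by 0.89 from clone 1 to clone 2, and let-7a least, with both clones at 10.47.
The median distance between profiles over the clones was similar for members close and far apart in sequence. The root mean square distance between centred clone profiles was smallest for let-7f and let-7g (0.06), which differ by 2 bases, and next smallest for let-7a and let-7c (0.12), which differ by 1. For let-7b and let-7c, which also differ by 1 base and share a cluster, it was 0.46. The median distance was 0.37 over the 4 pairs with 1 difference, 0.36 over 10 pairs with 2 and 0.38 over 11 pairs with 3. It was 0.36 over 9 pairs with 4 and 0.35 over 2 pairs with 5 or more. The smallest distance was 0.21 among pairs with 3 differences, 0.21 with 4 and 0.22 with 5 or more. These pairs share the same 4 arrays and are a description only.

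The passenger strands, which are usually degraded once the let-7 strand is loaded, were mostly dim. Of 10 named, 8 were on the array, with mean levels from 6.41 (let-7b*) to 8.47 (let-7i*), and 0 passed limma's adjusted p of 0.05, with 1 of 8 under an unadjusted p of 0.05, beside 10.4% of all miRNAs. Their median log2 fold change was 0.14. The exception in level, let-7i*, was 8.40 and 9.55 in the wild type and 7.81 and 8.14 in the mutant clones, lower in both Junb-/- clones by a log2 fold change of -1.002 (standard error 0.41, 95% interval from -1.89 to -0.11, adjusted p = 0.383 and unadjusted p = 0.0297). let-7i itself had -0.19, and let-7b* and let-7c-2* had 0.69 (adjusted p = 0.510) and 0.56 (adjusted p = 0.743). The passenger strands of Mirlet7a-1 and Mirlet7c-2 are the same 22 bases, so their spots read one sequence where the names refer to these genes. The values of let-7a* and let-7c-2* nevertheless differed. let-7a* read 6.64 and 5.98 in the wild type and 6.40 and 6.76 in the mutant clones, a log2 fold change of 0.27. let-7c-2* read 6.83 and 5.96 in the wild type and 7.59 and 6.32 in the mutant clones.
The miRNAs best known for sharing clusters with let-7 genes belong to the miR-99/100 and miR-125 families. Of these 5, miR-99a was higher in Junb-/- clones with a log2 change of 1.75 (adjusted p = 0.0352) and 4 did not pass. Over all 710 miRNAs 1.41% passed. By limma 2 of the 5, miR-99a and miR-100, had an unadjusted p under 0.05, beside 10.4% of all miRNAs. The median log2 change was 0.29 over the 5. let-7c, the cluster partner of miR-99a, had 0.33. miR-100, whose gene lies near Mirlet7a-2, had wild type levels of 7.62 and 9.28 and Junb-/- levels of 9.73 and 9.54 and a log2 change of 1.19 (adjusted p = 0.354). miR-125b-5p had 0.29 and, beside let-7e, miR-99b had -0.18 and miR-125a-5p 0.26. The list of 5 leaves out 2 genes inside the window of 60000 bases. Of these, Mir3113 near Mirlet7f-2 has no miRNA among the 710 names, and miR-135a, named for the gene near Mirlet7g, read 7.18 and 6.38 in the wild type and 6.31 and 6.29 in the mutant clones, a log2 difference of -0.48 (adjusted p = 0.738).

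miRNAs with a related 5′ end were faint. miR-202-3p, which shares all but the last base of the seed, had a mean level of 7.24 and a log2 fold change of -0.10. miR-196a and miR-196b, in which the GGUAG of the seed is moved by a base toward the 5′ end, had mean levels of 6.61 and 6.75 and log2 fold changes of 0.29 and 0.06. None of the 3 passed by limma, and none had an unadjusted p under 0.05. miR-1961, which carries the let-7 seed and was looked up after the seed search, had wild type levels of 6.61 and 6.17 and Junb-/- levels of 7.25 and 6.73, a log2 fold change of 0.60 (adjusted p = 0.650).
A list of further miRNAs that have been tied, like let-7, to the Lin28 and Hmga2 axis held 9 measured arms under 7 names, and it shares miR-125a-5p and miR-125b-5p with the neighbours above. 1 of the 9, miR-181a, was higher in Junb-/- clones by 1.71 on the log2 scale (adjusted p = 0.0352). The other 8 did not pass, and the median was 0.29. Over all miRNAs 1.41% passed. By limma 2 of the 9, miR-181a and miR-30a, had an unadjusted p under 0.05, beside 10.4% of all miRNAs. miR-30a, with 1.11 (adjusted p = 0.200), and miR-26b, with 0.72 (adjusted p = 0.495), came next. The calls of miR-99a and miR-181a are 2 of the 10 over all 710 miRNAs, a count that fell to 0 when wild type clone 1 was dropped, and likewise for wild type clone 2.

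Averaged over the 9 members, the family stood at 9.40 and 9.62 in the wild type and at 9.92 and 9.81 in the mutant clones. Among 370 miRNAs outside the family with a mean level at or above that of miR-98, the clone profiles most like it by root mean square distance over the 4 clones were those of miR-125b-5p (0.07), miR-669d (0.08) and miR-674* (0.09). miR-125b-5p is a bright miRNA with wild type levels of 13.29 and 13.62 and Junb-/- levels of 13.73 and 13.75. miR-669d read 7.77 and 7.95 in the wild type and 8.26 and 8.34 in the mutant clones. miR-674* read 7.19 and 7.18 in the wild type and 7.60 and 7.56 in the mutant clones. These miRNAs did not pass the test either (adjusted p = 0.870, 0.738 and 0.785).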

How the data were processed

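Febit miRNA arrays were run on MEF RNA, 1 for each of 2 wild type and 2 Junb-/- clones. For every spot the authors deposited a linear intensity, with no background, flag or control values, and 1 log2 value per miRNA and array that they had normalized by a method that the sources used here do not give. No background was subtracted here. Log2(intensity + 50) was quantile-normalized over the 4 arrays, averaged over spots and tested in limma 3.58.1 (R 4.3.3, default eBayes) over 710 miRNAs, Junb-/- minus wild type, with Benjamini-Hochberg adjustment and a threshold of 0.05. The methods name limma for the array. No block was used. Spots without a value were left out. Quantile normalization and the limma test were tried on values simulated per miRNA, whereas the offset and the averaging over spots were not. Plots were drawn with matplotlib 3.10.9. Sequences and gene places are RefSeq's for GRCm38.p6, since the array files name no build. The members and lists were chosen with earlier results of these data known. Named are all members, list miRNAs past the threshold and up to 3 with the smallest p, and the 3 nearest profiles. Taqman and zebrafish data were not analysed here.

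Alternatives were other offsets and a floor, 75th percentile, median, cyclic loess or no scaling, the authors' values, the brighter miRNAs only, limma with trend and robust on, the median over spots, the methods' t-test (which they use for qRT-PCR), a block for clone number, and leaving out each clone. Spots with a value on all 4 arrays, the extreme spots left out, and spots of at least 100 on all 4 arrays were added after seeing the data.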

Additional observations from a re-analysis of the deposited data

How the results depend on the processing

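No member passed an adjusted p of 0.05 under any of the 20 alternatives. The family's median log2 fold change, 0.39, was 0.52 without an offset, 0.61 without normalization, 0.15 with 75th percentile scaling, -0.0031 with median scaling, 0.013 with the authors' values and 0.18 with the median over spots, and 0.35 to 0.43 when any 1 clone was dropped. The median over all miRNAs was 0.23 without normalization and -0.09 with median scaling. Members changed sign with 75th percentile scaling (let-7d -0.30, let-7f -0.10), median scaling (let-7a -0.0031, let-7c -0.056, let-7d -0.47, let-7f -0.27), the authors' values (let-7a -0.15, let-7c -0.059, let-7d -0.27) and the median over spots (let-7d -0.00069). Dropping 1 clone moved let-7c from -0.070 (without wild type clone 1) to 0.74, and let-7d from -0.18 (without Junb-/- clone 1) to 0.35. The cause of these shifts was not tested. Of all 710 miRNAs, 10 passed. That count was 0 without an offset, with 75th percentile or median scaling, with no normalization, with the methods' t-test, with the median over spots and over spots of at least 100, 4 with intensities under 16 set to 16, 4 with the authors' values, 17 with trend and robust on and 0 to 11 when 1 clone was dropped, being 0 if either wild type clone (1 or 2) was the one dropped. In fits with all 4 clones, let-7b had an unadjusted p under 0.05 in limma with cyclic loess and with the replicate block. So did 90 of all 710 miRNAs with cyclic loess and 110 with the replicate block. By the methods' t-test miR-98 was under 0.05 unadjusted, as were 47 of all 710 miRNAs. With the clone number as a replicate block 16 miRNAs passed and no member (smallest adjusted p = 0.308, let-7b). The correlation between deviations of clones with the same number was 0.31. The study describes clone pairs, but the sources used here do not say that the clone number marks them. As 2 pairs cannot settle a pairing, the tests were unpaired. miR-98 fell outside the brighter miRNAs and had no spot of at least 100 on all 4 arrays, and no fit with slide as a block could be made, since the files name no slide. Fits that drop a clone take the spread from the other genotype, drawn toward that of all miRNAs. With a Junb-/- clone dropped, limma used 1 common spread for every miRNA. Dim members such as miR-98 lie near the offset, where differences are compressed.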
